A study of Mus musculus with 9 samples.

Results

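The 5S rRNA gene cluster is a tandem array of 5S genes on mouse chromosome 8, and it is described here by the UBTF peaks that lie on it. All peaks whose summit lay between chr8:126060000-126150000 of the mm9 build were taken, which gave 1074 of the 1796909 peaks of 6 libraries. The libraries were UBTF chromatin immunoprecipitations followed by sequencing (ChIP-seq) from primary pre-B cells of C57BL/6 mice, with 2 replicates each of wild type, premalignant and malignant cells. Premalignant and malignant cells came from heterozygous Eµ-Myc mice, in which an immunoglobulin heavy chain enhancer drives a Myc transgene in the B lineage, and wild type cells carried no transgene. Wild type and premalignant mice were 4 to 6 weeks old and malignant mice 10 to 20 weeks old with established lymphoma, so that age and stage cannot be told apart between malignant and the other cells. The cells were sorted from bone marrow on B220, IgM and IgD, and the peak lists hold no expression values by which the cell type could be checked. The 3 input samples, 1 per stage, were not analysed here.

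5S rRNA is the small RNA of the large ribosomal subunit that is not part of the 45S precursor. Its genes are transcribed by RNA polymerase III, which needs TFIIIA bound to an internal control region inside the gene, made of an A box, an intermediate element and a C box, and then TFIIIC and TFIIIB. UBTF is an HMG-box protein of RNA polymerase I transcription that coats the active 45S rRNA genes (rDNA), which lie on other chromosomes. The 5S array addresses where UBTF peaks fall in another family of tandem rRNA genes, in which the same sequence recurs many times.

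The window held 51 annotated 5S genes, all on the minus strand, from chr8:126062686-126147645. Of these, 32 had the same 119 bases, 13 differed from them at 1 to 4 positions and 6 at 5 or more. Neighbouring genes started a median of 1697.5 bp apart, with a range of 1665 to 1727 bp, which gave 50 complete repeat units of a 5S gene and its spacer. The control elements were taken at bases 50 to 64 of the gene (A box), 67 to 72 (intermediate element) and 80 to 97 (C box). The copies least like the common one were AC141881.2 at chr8:126125472-126125580 and the copy at chr8:126147537-126147645, each 109 bases long with 10 differences and all 3 elements intact. AC141881.2 lacked 10 bases upstream of the A box. The copy least like the common one without such a loss was n-R5s127 at chr8:126108435-126108551 on the minus strand, with 8 differences. Over the array the intermediate element was intact in 51 copies, the A box in 47, the C box in 43 and all 3 elements in 39 of 51.

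Of the genes other than 5S that overlapped the window, Gas8, a component of motile cilia, ended at base 126060422 and placed 1 exon in it, and the long gene model Gm20388 spanned the window without an exon in it. Most of the array is repeated sequence. Of the 50-base stretches in the window, 93.5% occurred more than once in mm9, with a median of 46 copies, against 3.88% in the 100 kb to the left and 6.04% in the 100 kb to the right. GC content was 62.6% in the window, 49.0% in the left flank and 48.2% in the right flank. The part of copy number and GC content in the peak values was not tested.

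UBTF peaks covered the array from end to end in every library. The window held 212 and 212 summits for wild type replicates 1 and 2, 207 and 145 for the premalignant and 149 and 149 for the malignant ones. In each library the summits all belonged to 1 merged region, of 88702 and 88734 bp in the wild type replicates, 88718 and 88558 bp in the premalignant replicates and 88726 and 88602 bp in the malignant replicates, between 98.4% and 98.6% of the window. No other region outside rDNA held as many summits in any library, the next holding between 30 and 166. It was also the longest region outside rDNA in 5 lists, while wild type replicate 2 had 1 longer, of 98983 bp.

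The flanks of 100 kb on each side held few summits. The cluster had 2.36 and 2.36 summits per kb in the wild type replicates, 2.30 and 1.61 in the premalignant replicates and 1.66 and 1.66 in the malignant replicates. The left flank had 0.02 and 0.05 in the wild type replicates, 0.02 and 0.13 in the premalignant replicates, and 0.10 and 0.17 in the malignant replicates, and the right flank ranged from 0.01 to 0.18. Density was thus higher in the cluster in 6 of 6 libraries on either side. The mean difference was 1.91 ± 0.439 summits per kb from the left flank and 1.91 ± 0.434 from the right (SD, n = 6), each with p = 0.03125 by a two-sided exact sign-flip permutation test and 0.03125 after adjustment over both, the smallest p that 6 libraries can give. Over the whole of chromosome 8 the density was 0.0286 to 0.203 summits per kb. Peaks also covered 1.88% to 16.3% of the flanks.

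**Figure D1:**
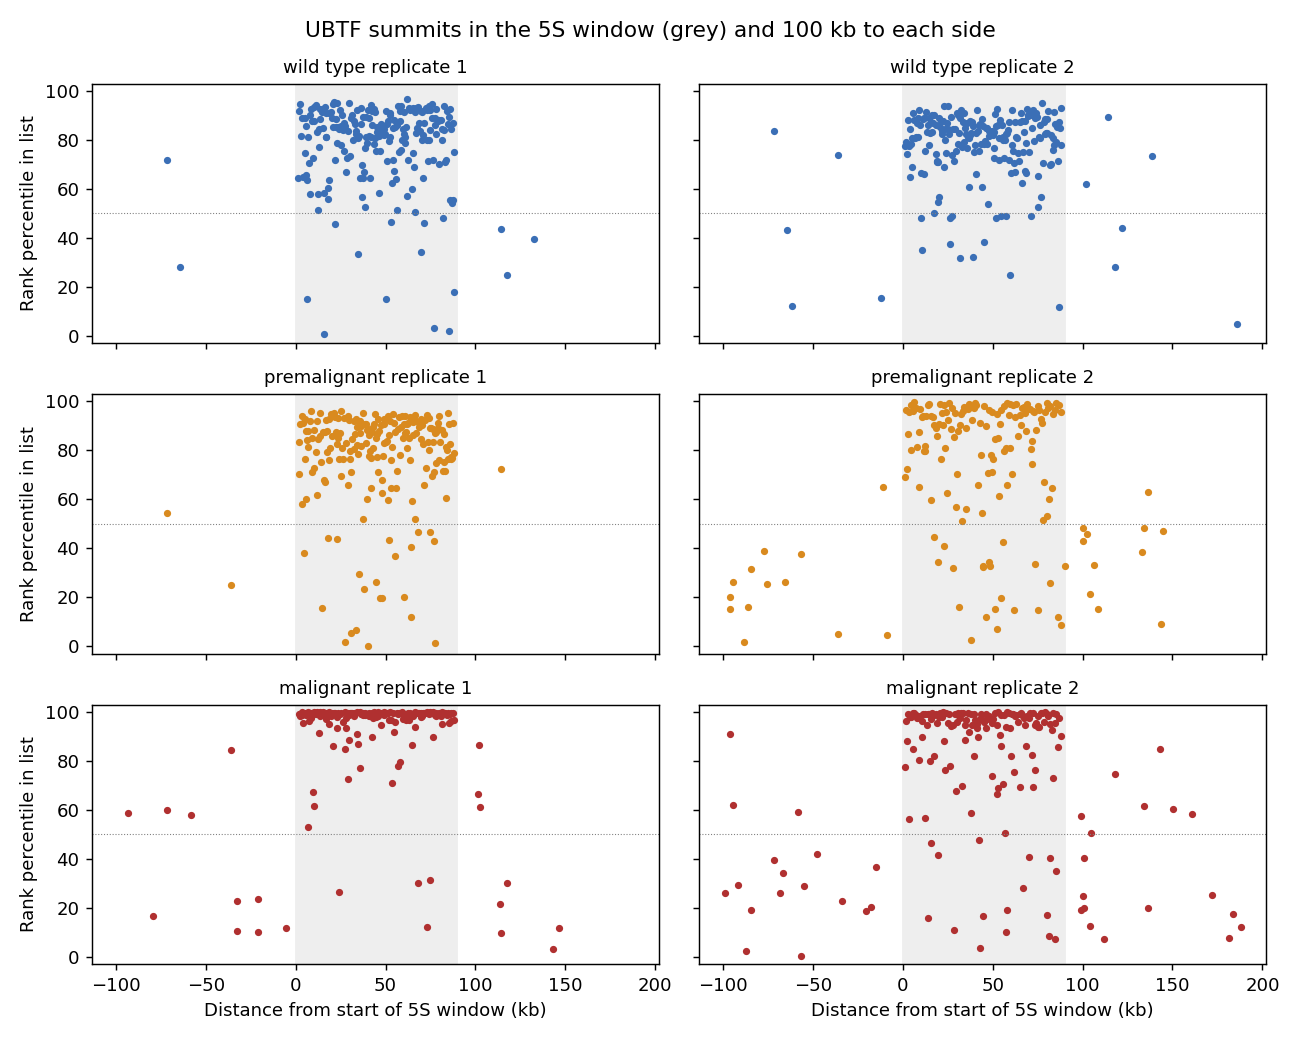
Each point is a UBTF summit, with its distance from the start of the 5S window in kb on the x axis and its rank percentile in the list of its library on the y axis; 1 panel per library, the window in grey, the dotted line at percentile 50. Summits are dense inside the window and sparse on both sides, and in the malignant libraries most of them sit near the top of the scale.

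The caller's score, on which peaks were ranked, is not scaled between libraries, so each peak was given a rank percentile, the percent of peaks in its own list that score lower. The median percentile of the cluster was 84.1 and 82.4 in the wild type replicates, 84.7 and 90.2 in the premalignant replicates and 99.2 and 95.8 in the malignant replicates. The flanks lay lower, with medians between 23.1 and 72.3. The cluster exceeded the left flank by 54.4 ± 17.2 and the right flank by 46.6 ± 23.5 percentile points (SD, n = 6), higher in 6 of 6 libraries on each side. The smallest margin was 12.4 points, in premalignant replicate 1 on the right, where the flank held 1 summit.

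The best summit of the array stood highest in the malignant lists. It had percentile 96.8 and 95.2 in the wild type replicates, 96.0 and 99.7 in the premalignant replicates and 99.9 and 99.9 in the malignant replicates. In ranks these were 3686 of 116180 and 8856 of 184609 in the wild type replicates, 3146 of 78113 and 2004 of 575674 in the premalignant replicates, and 286 of 279068 and 637 of 563265 in the malignant replicates. Both malignant ranks were thus better than the other 4, in lists that were not the shortest.

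The same order held for the number of summits among the best of each list. The best 1% of a list, a background of 1% of its peaks, held 0 and 0 cluster summits in the wild type replicates, 0 and 10 in the premalignant replicates, and 79 and 38 in the malignant replicates. The best 10%, a background of 10%, held 52 and 27 in the wild type replicates (24.5% and 12.7% of the cluster), 59 and 74 in the premalignant replicates (28.5% and 51.0%) and 130 and 100 in the malignant replicates (87.2% and 67.1%). By fixed numbers, the best 1000 peaks held 47 cluster summits in malignant replicate 1, 4 in malignant replicate 2 and 0 in the other libraries. Among the best 20000 the order was different, with 113 and 30 in the wild type replicates, 155 and 37 in the premalignant replicates, and 127 and 69 in the malignant replicates.

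The best score on the array was far below the best on rDNA, although single rDNA summits ranked as low as percentile 0.414 (wild type replicate 1). The best score in the cluster was 0.378% and 0.487% of the best rDNA score in the wild type replicates, 0.283% and 0.196% in the premalignant replicates, and 0.605% and 0.168% in the malignant replicates. These shares did not separate the stages, as both malignant values enclosed the other 4. Reads were aligned to a genome with 1 rDNA copy, on which reads of all rDNA repeats add up, whereas reads of the array are spread over its many copies. The shares therefore do not compare binding per gene copy. Relative to the median score of its list, the median cluster summit scored 2.40-fold and 2.48-fold in the wild type replicates, 2.14-fold and 2.65-fold in the premalignant replicates, and 6.93-fold and 3.38-fold in the malignant replicates.

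**Figure D2:**
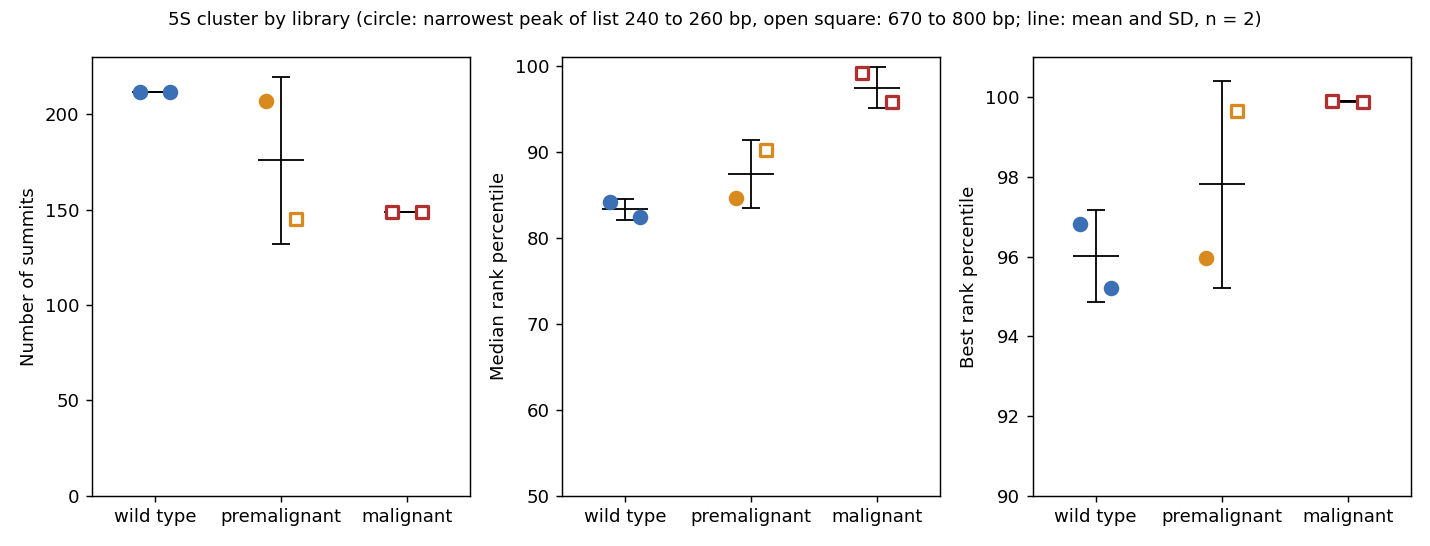
Number of summits (left), median rank percentile (middle, axis from 50) and best rank percentile (right, axis from 90) of the 5S cluster by stage; points are libraries, circles those whose narrowest peak was 240 to 260 bp and open squares those at 670 to 800 bp, and lines give the mean and SD of 2 libraries. The number of summits divides by peak width, 207 to 212 against 145 to 149, and both malignant libraries have the highest median percentiles.

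The number of summits went with the width of peaks in a library. The shortest peak of a list measured 240 and 250 bp for wild type and 260 bp for premalignant replicate 1 (the narrow set), as against 680 bp for premalignant replicate 2 and 800 and 670 bp for malignant (the wide set). Every wild type library was narrow and every malignant one wide, and width and stage cannot be told apart between them. The mean number of summits was 212 ± 0 in the wild type replicates, 176 ± 43.8 in the premalignant replicates and 149 ± 0 in the malignant replicates (SD, n = 2). The difference of malignant minus wild type was -63, with p = 0.333 by a two-sided exact permutation test, the smallest that 2 against 2 libraries can give. Premalignant minus wild type was -36 (exact permutation p = 0.333) and malignant minus premalignant -27 (exact permutation p = 1), and adjusted over 6 tests these 3 comparisons had p = 0.8, 0.8 and 1 in the order given. Within the narrow set premalignant minus wild type was -5, and within the wide set malignant minus premalignant was 4, in the opposite direction.

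The covered length was nearly the same at each stage. It was 88718 ± 22.6 bp in the wild type replicates, 88638 ± 113 bp in the premalignant replicates and 88664 ± 87.7 bp in the malignant replicates (SD, n = 2). The differences of -80 bp (premalignant minus wild type), 26 bp (malignant minus premalignant) and -54 bp (malignant minus wild type) each had an exact permutation p = 0.667, two-sided, and 0.8 after adjustment. None exceeded the spread between replicates.

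The median percentile was 83.3 ± 1.20 in the wild type replicates, 87.4 ± 3.93 in the premalignant replicates and 97.5 ± 2.38 in the malignant replicates (SD, n = 2). Malignant minus wild type was 14.2 points and malignant minus premalignant 10.0 points, and the malignant libraries overlapped neither other stage, though no test was applied to these medians. Within the wide set malignant minus premalignant was 7.25 points, and within the narrow set premalignant minus wild type was 1.37 points. The lists differed in length from 78113 to 575674 peaks. With every list cut to the best 78113 peaks, the cluster had a median percentile of 76.6 and 59.9 in the wild type replicates, 84.7 and 72.1 in the premalignant replicates, and 97.4 and 85.5 in the malignant replicates, and malignant minus wild type was 23.2 points. In those shortened lists the cluster kept 206 and 192, 207 and 82, and 141 and 106 summits in the same order. Counting each region once by its best summit, the array ranked 3595 and 8668 in the wild type replicates, 3069 and 1833 in the premalignant replicates, and 250 and 564 in the malignant replicates.

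Summits were closely and unevenly spaced. The median distance between neighbouring summits was 335 and 390 bp in the wild type replicates, 374 and 697 bp in the premalignant replicates, and 665 and 659 bp in the malignant replicates, against 1080 to 17962 bp over chromosome 8. The shortest distance in any library was 192 bp and the longest 1490 bp. No distance thus reached the length of the shortest repeat unit, and a unit held a mean of 4.14 and 4.14 summits in the wild type replicates, 4.06 and 2.80 in the premalignant replicates, and 2.90 and 2.90 in the malignant replicates. In the narrow set 42.2% to 76.8% of distances were from 300 to under 600 bp, whereas in the wide set 7.43% to 9.72% were, and 57.4% to 63.2% were 600 bp or more.

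Where in the repeat unit the summits fell differed between libraries, also within a stage. Within 200 bp of a 5S gene lay 63 and 90 summits in the wild type replicates (29.7% and 42.5%), 65 and 12 in the premalignant replicates (31.4% and 8.28%), and 49 and 18 in the malignant replicates (32.9% and 12.1%). By area, 29.4% of the window lies that close to a gene. The first replicate of each stage was thus near the share of the window, while of the other libraries the wild type one was above it and the premalignant and malignant ones below it. That direction depended on the limit: within 500 bp of a gene, where 63.4% of the window lies, were 57.5% and 60.8% of summits in the wild type replicates, 57.0% and 67.6% in the premalignant replicates, and 40.9% and 69.8% in the malignant replicates. At that limit the second premalignant and malignant replicates were above the share of the window and the other libraries below it. On the gene itself lay 41 and 2 summits in the wild type replicates, 24 and 0 in the premalignant replicates, and 23 and 0 in the malignant replicates.

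The malignant replicates took different parts of the unit. Of summits in complete units, malignant replicate 1 placed 47 of 145 at 0 to 299 bp downstream of the 5S start, 0 at 400 to 799 bp and 63 at 900 to 1199 bp. Malignant replicate 2 placed 0 of 145, 85 and 0 in those stretches, and premalignant replicate 2 placed 4 of 140, 71 and 0. Wild type replicates spread over all 3 stretches, with 49, 22 and 62 of 207 in replicate 1 and 38, 32 and 39 of 207 in replicate 2, and premalignant replicate 1 had 48, 38 and 41 of 203. Malignant replicate 2 and premalignant replicate 2 thus shared a pattern in which the gene and the stretch at 900 to 1199 bp were without summits, or nearly so.

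**Figure D3:**
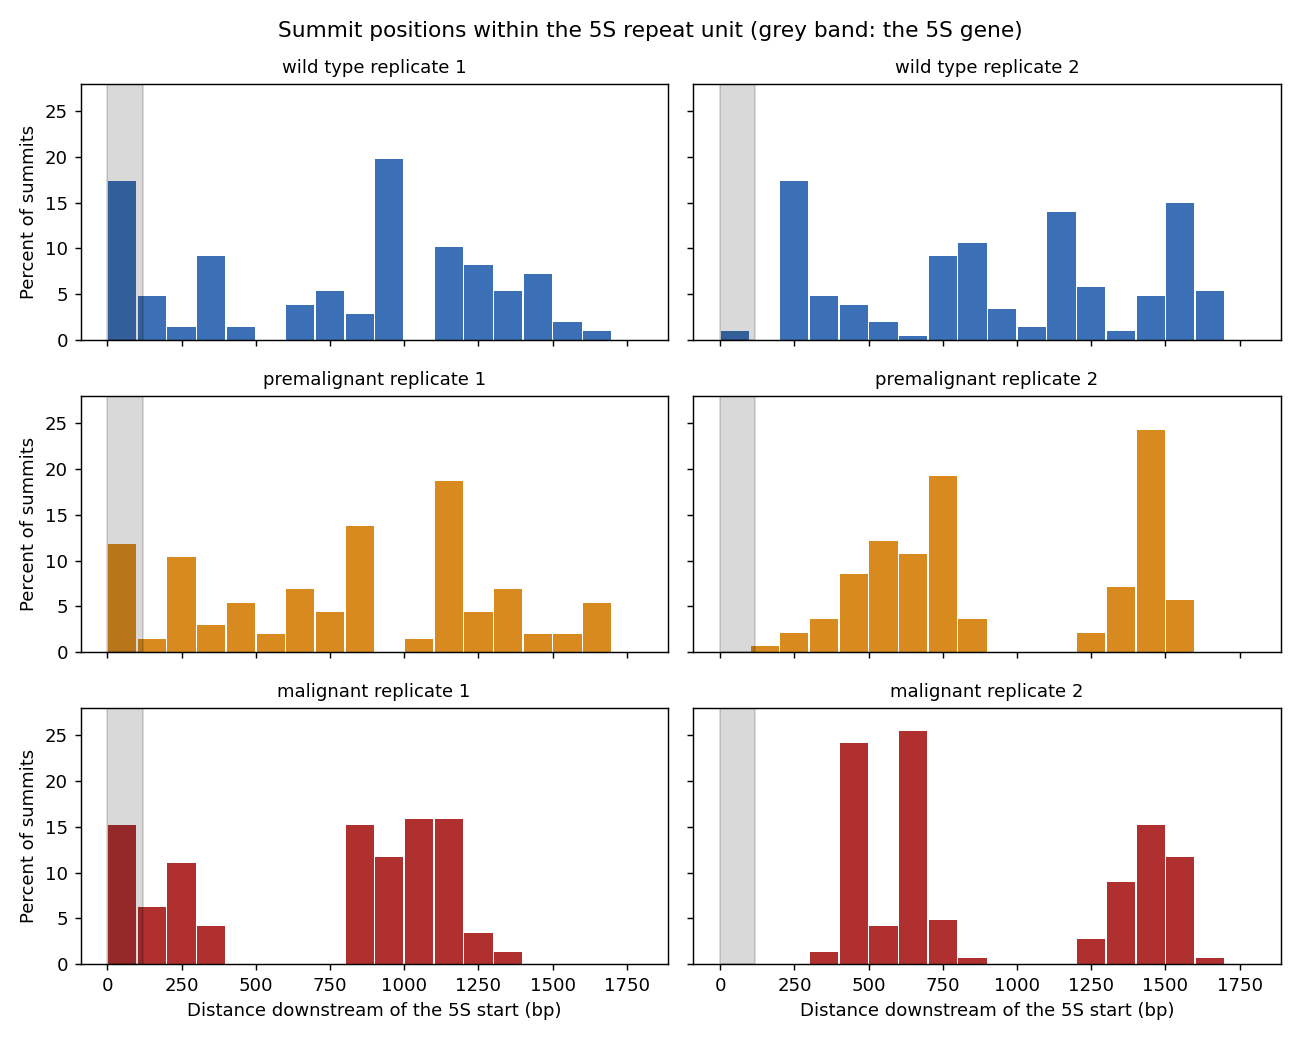
Percent of the summits in complete repeat units (y axis) by distance downstream of the 5S start in bp, in steps of 100 bp (x axis), 1 panel per library, with the 5S gene in grey. Malignant replicate 1 has summits at the gene and none at 400 to 799 bp, while malignant replicate 2 has none at the gene and 85 of 145 at 400 to 799 bp.

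The best summit of each unit also fell in different places. Over windows of 300 bp, the one that held the most was at 0 to 299 bp in wild type replicate 1 (27 of 50 units), 1338 to 1637 bp in wild type replicate 2 (21), 1092 to 1391 bp in premalignant replicate 1 (34) and 486 to 785 bp in premalignant replicate 2 (30). It was at 1028 to 1327 bp in malignant replicate 1 (47 of 50) and 421 to 720 bp in malignant replicate 2 (30). The windows of a stage's replicates did not overlap, whereas those of premalignant replicate 2 and malignant replicate 2 did. The window of premalignant replicate 1 overlapped those of malignant replicate 1 and of wild type replicate 2.

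The sequences around the best summits show this difference, and 100 bases on each side of the summit are given for both malignant replicates, on the minus strand of mm9 with the 21 bases centred on the summit in capitals. They lie at chr8:126134546-126134746 and chr8:126117973-126118173.
malignant replicate 1: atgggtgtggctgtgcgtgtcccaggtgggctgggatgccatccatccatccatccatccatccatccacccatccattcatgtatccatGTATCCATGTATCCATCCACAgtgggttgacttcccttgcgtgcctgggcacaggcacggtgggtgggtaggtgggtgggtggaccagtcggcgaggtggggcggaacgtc
malignant replicate 2: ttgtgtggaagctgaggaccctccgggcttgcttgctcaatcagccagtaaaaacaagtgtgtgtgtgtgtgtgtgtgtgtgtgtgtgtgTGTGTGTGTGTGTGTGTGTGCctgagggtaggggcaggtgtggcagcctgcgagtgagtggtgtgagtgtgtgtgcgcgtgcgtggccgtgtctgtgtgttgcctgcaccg
The wild type replicate 1 summit, at base 126122083, lay on the 5S gene AC141881.5, 93 bp downstream of its start, and had a score of 32.9. The malignant replicate 1 summit, at base 126134646 with a score of 81.9, lay 611 bp upstream of the start of n-R5s142 among repeated ATCC units, and the malignant replicate 2 summit, at base 126118073 with a score of 54.7, lay 699 bp downstream of the start of n-R5s133 in a run of TG. Summits within 100 bp of a tandem repeat of at least 40 bases with a unit of up to 6 bases numbered 23 and 24 in the wild type replicates, 32 and 53 in the premalignant replicates, and 3 and 56 in the malignant replicates, where 17.5% of the window lies that close. The other named summits were alike within some libraries and mixed in others. In wild type replicate 1 the next best summits lay on n-R5s111 and n-R5s112, and in malignant replicate 1 they lay 615 and 598 bp upstream of n-R5s119 and n-R5s114. The best summit of wild type replicate 2 lay 140 bp upstream of n-R5s144, that of premalignant replicate 1 571 bp upstream of n-R5s113, and that of premalignant replicate 2 171 bp upstream of n-R5s102. The next best of premalignant replicate 2 lay 701 and 679 bp downstream of a 5S start, those of wild type replicate 2 lay 480 bp downstream of n-R5s112 and 110 bp upstream of n-R5s113, and those of malignant replicate 2 lay 205 bp upstream of AC141881.9 and 698 bp downstream of n-R5s112. In premalignant replicate 1 they lay 491 and 580 bp upstream of n-R5s103 and n-R5s106.

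All 50 repeat units held a summit in each library, so that no stretch of the array stood out as empty. The fewest in a unit were 3 in the narrow set and 2 in the wide set, and the most were 6 and 4. The best percentile per unit had a median of 92.2 and 88.7 in the wild type replicates, 92.8 and 97.3 in the premalignant replicates, and 99.8 and 99.3 in the malignant replicates. Its lowest value was 83.4 and 81.2 in the wild type replicates, 84.9 and 78.3 in the premalignant replicates, and 98.2 and 94.9 in the malignant replicates. In percentiles, the weakest unit of malignant replicate 1 thus stood above the strongest unit of all 3 narrow libraries, at 95.2 to 96.8. The lists differ in length, with 279068 peaks in malignant replicate 1 and 78113 to 184609 in the narrow set. Whether this order of units holds in ranks or in shortened lists was not tested. The ends of the array did not stand apart, with medians of 90.1 over the first 5 units and 92.0 over the last 5 in wild type replicate 1, and 99.1 and 99.3 in malignant replicate 2.

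**Figure D4:**
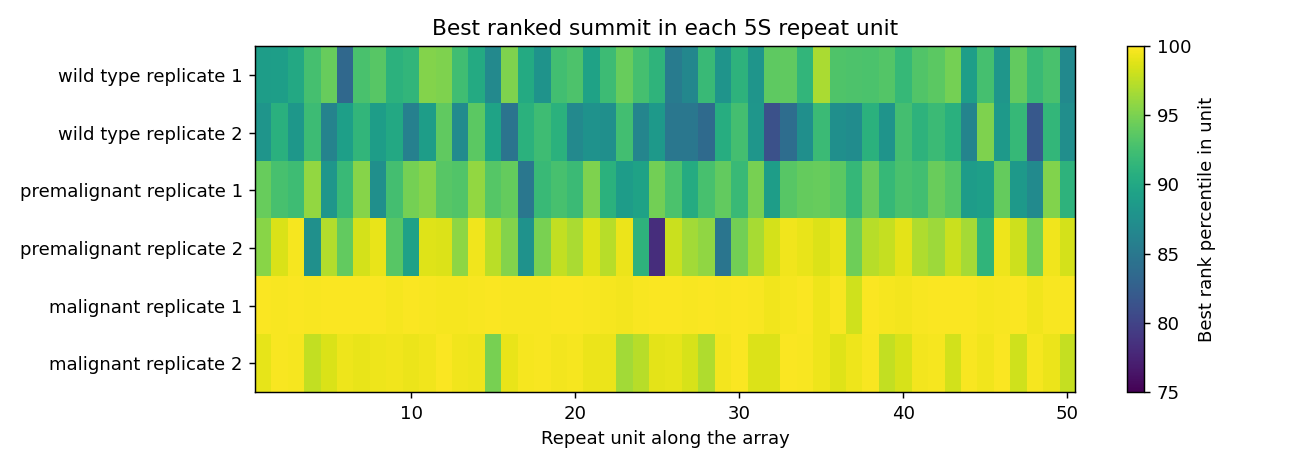
Best rank percentile (colour, from 75 to 100) of the summits in each of the 50 complete repeat units along the array (x axis) in each library (y axis). The malignant libraries are high over all units, with lowest values of 98.2 and 94.9, and premalignant replicate 2 has the lowest unit of all, at 78.3.

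Units with changed control elements did not differ from the rest in a single direction. Over 38 units in which all 3 elements were intact and 12 in which at least 1 was changed, the median best percentile was 92.8 against 88.0 in wild type replicate 1 and 88.3 against 90.01 in wild type replicate 2. It was 92.8 against 92.8 and 97.6 against 96.6 in the premalignant replicates, and 99.8 against 99.8 and 99.3 against 99.4 in the malignant replicates. The sign of the difference thus varied between the wild type replicates. Because most of the sequence recurs between units, this comparison cannot tell whether a changed element alters binding at its own copy. Nor was a unit that ranked high in 1 library high in another: Spearman's rank correlation between libraries over the 50 units lay between -0.18 and 0.23, and units share reads with each other through their common sequence.

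Agreement of summit positions did not follow stage. Within 100 bp of a summit of the other replicate lay 95 of 212 summits in the wild type replicates (44.8%), where 47.3% of the window lies that close. In malignant cells 9 of 149 replicate 1 summits lay within 100 bp of a replicate 2 summit (6.04%, window 33.3%), and in the premalignant replicates 59 of 207 replicate 1 summits lay within 100 bp of a replicate 2 summit (28.5%, window 32.4%). Across stages, 111 of 145 premalignant replicate 2 summits (76.6%, window 33.3%) lay within 100 bp of a malignant replicate 2 summit.

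Reproducible peaks were then sought with the irreproducible discovery rate (IDR), the measure the study used, which models the ranks of overlapping peaks in both replicates of a stage. It was fitted here by maximum likelihood, and the numbers that pass, over the genome too, depend on the fit. Of the pairs on the array, 114 of 212 passed an IDR of 0.05 in the wild type replicates, 0 of 145 in the premalignant replicates and 109 of 149 in the malignant replicates. Over the genome 23.4% of wild type, 1.59% of premalignant and 24.9% of malignant pairs passed, against 53.8%, 0% and 73.2% on the array. In premalignant cells 921 pairs passed over the genome, and the lowest IDR on the array was 0.105. Because each library has 1 region over the whole array, pairs were joined by rank alone. Their summits lay a median of 28547, 20133 and 28465 bp apart in wild type, premalignant and malignant cells, and 0 pairs lay within 200 bp. Joining by rank itself favours agreement of ranks. The pass rates of these array pairs therefore cannot show that summits are more reproducible there than over the genome. When only summits within 200 bp were paired, 47 of 161, 0 of 96 and 7 of 31 passed, where 20.7%, 3.03% and 2.20% did over the genome.

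5S genes elsewhere in the genome seldom had a peak. Outside the array, mm9 annotation held 267 dispersed 5S genes, many of which are pseudogenes, and 28 and 27 of them in the wild type replicates, 22 and 50 in the premalignant replicates, and 25 and 56 in the malignant replicates had a summit within 1 kb, as against 51 of 51 on the array in every library. This is a description only, since the close spacing of summits on the array, at most 1490 bp, puts every copy within 1 kb of one. The share of other positions in the genome this close to a summit was not computed. A difference of the dispersed genes from background was therefore not tested.

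Genes that make, bind or regulate 5S RNA were examined at their own starts. The list of 25 genes held TFIIIA, subunits of TFIIIC and TFIIIB, subunits of RNA polymerase III, its repressor Maf1, the 5S binding ribosomal proteins Rpl5 and Rpl11, and Ssb, which encodes the La protein that binds the 3′ ends of polymerase III transcripts. A summit within 1 kb of the start was present for 15 and 15 of 25 in the wild type replicates, where 36.5% and 45.5% of all protein-coding genes had one, for 8 and 6 in the premalignant replicates (22.3% and 33.7% of all genes), and for 19 and 10 in the malignant replicates (47.5% and 41.1%). The share of the list was thus above that of all genes in 4 libraries, and below it in premalignant replicate 2 (24%) and malignant replicate 2 (40%). Which libraries were above depended on the limit and on list length: within 5 kb premalignant replicate 1 was below (32% against 36.6%) and premalignant replicate 2 above (72% against 69.8%), and with shortened lists malignant replicate 1 was below (16% against 18.8%).

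Gtf3c3, a TFIIIC subunit, and Polr3c and Polr3e, subunits of RNA polymerase III, had a start summit in all 6 libraries. How many of all protein-coding genes had one in all 6 libraries, or in 0, was not computed. Gtf3c3 had percentile 19.6 and 81.9 in the wild type replicates, 6.02 and 3.82 in the premalignant replicates, and 86.9 and 42.8 in the malignant replicates. Polr3c had percentile 24.9 and 84.7 in the wild type replicates, 25.1 and 77.4 in the premalignant replicates, and 89.1 and 91.7 in the malignant replicates. Polr3e had percentile 64.1 and 64.1 in the wild type replicates, 30.3 and 94.0 in the premalignant replicates, and 64.4 and 94.5 in the malignant replicates. Replicates of a stage thus lay far apart for several of these values, so no order of stages was read from them. Polr3a and Polr3b, the largest subunits, and Polr3k had a start summit in 0 libraries. Gtf3a, which encodes TFIIIA, had one at percentile 60.2 and 51.7 in the wild type replicates, at 58.3 in malignant replicate 1 and none in the other libraries; it was named after its values were seen, as the factor specific to 5S genes.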

How the data were processed

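UBTF ChIP-seq peak lists of 6 libraries were used. The authors aligned 50-bp paired reads with bowtie2 to mm9 plus 1 rDNA copy, dropped duplicates with Picard (1.110 in the submitters' processing notes, which also name CASAVA 1.8.2) and called peaks per library with SPP. The deposited lists hold the caller's score, which is not scaled between libraries, a false discovery rate (a p-value-like measure, deposited as a q-value on a linear scale) and the summit offset. Read depth is unknown, and a read that matches several copies equally well is placed at 1 of them by the aligner's default. Summits on the array therefore do not show which copy was bound, and the copy names given here mark positions only. Replicates are individual animals, and their numbers pair nothing in the labels.

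Values were computed with Python 3.11.15, numpy 2.4.6, scipy 1.17.1, pandas 2.3.3, numba 0.67.0 and edlib. Ranks were averaged over ties, and gene coordinates and sequences came from NCBIM37 (mm9) with GENCODE M1. Stages were compared by exact permutation tests, and cluster and flanks by exact sign-flip tests, with Benjamini-Hochberg adjustment. IDR was fitted by maximum likelihood after an expectation maximisation form had failed on simulated lists. The tests and IDR were tested on simulated data. The window, lists and tests were chosen with earlier results of these data known. Named summits were the 3 with the highest score per library, with their 5S genes. Named genes were those overlapping or next to the window, and those of the 25 with a start summit in all or in none of the 6 libraries. Alternatives are given in the closing section. Some gene names and sequences are not reported here.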

Additional observations from a re-analysis of the deposited data

How the results depend on the processing

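Of 212 alternative values, 168 were counted as unchanged, 27 as moved, 12 as weaker and 5 as reversed. Flank densities were judged by their p-value, and percentiles and spacings by the replicate spread. Differences between stages in summits and covered length were judged by their sign. Other counts had another tolerance: 90 and 129 summits near a 5S gene in wild type replicate 2, for example, counted as unchanged. Merging overlapping peaks left 1 region per library and differences of 0, 0 and 0 summits between stages. With lists shortened to 78113 peaks, the median percentile difference was 10.1 for premalignant and 23.2 for malignant minus wild type, the best percentile difference 4.73 and 7.44, and the left flank difference 35.6 over the 5 libraries with a summit left there. Shortening also gave 28 of 192 wild type IDR pairs (14.6%, genome 23.5%) and 47 of 106 malignant ones (44.3%, genome 4.93%). The wild type share thus turned from above to below that of the genome. Shortening further gave spacings of 690 and 824 bp in malignant replicates 1 and 2. Pathway genes then numbered 7 and 6 in wild type (28% and 24%, all genes 26.3% and 22.0%), 1 in premalignant replicate 2 (4%, all genes 7.62%), and 4 and 3 in malignant cells (16% and 12%, all genes 18.8% and 13.0%). An IDR under 0.01 left 41 of 212 wild type pairs (19.3%, genome 15%). Pairing summits within 200 bp left 47 wild type and 7 malignant pairs. Within 500 bp of a 5S gene lay 122 and 129 summits (wild type), 118 and 98 (premalignant), and 61 and 104 (malignant), and there premalignant replicate 2 (67.6%) and malignant replicate 2 (69.8%) turned from below to above the share of the window (63.4%). Within 5 kb, 18 pathway genes had a summit in premalignant replicate 2 (72%, all genes 69.8%) and 17 in malignant replicate 2 (68%, all genes 77.9%). Malignant minus premalignant summits turned to 4 among libraries with wide narrowest peaks. The cause was not tested, beyond fewer peaks or wider limits where the setting itself sets them.

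Leaving out 1 library gave premalignant minus wild type summits of -67 to -5, malignant minus premalignant -58 to 4 (4 without premalignant replicate 1) and malignant minus wild type -63 to -63. Covered length ran from -160 to 0, from -54 to 106 and from -116 to 8 bp in that order, turning without premalignant replicate 2 and malignant replicate 1 in the second, and without malignant replicate 2 in the third. The best percentile of premalignant minus wild type ran from -0.042 to 3.64. Density against the flanks ran from 1.82 to 1.99 (left) and 1.83 to 2.00 (right), each at p = 0.0625 by the exact sign-flip test, the smallest that 5 libraries can give. With the replicate number as a block, the differences in summits were -36, -27 and -63 (exact p = 0.5, 1 and 0.5, where 0.5 is the smallest possible), and it changed no call. The within-set comparisons, the regions counted once and the pairing by summits were chosen after seeing the data. Depth is unknown, and with 2 libraries a stage the exact permutation test used here could not go below 0.333; no model-based test of the stages was run.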
